A study of Mus musculus with 4 samples.

Results

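Glycolysis and hypoxia response genes were followed on the 4 arrays of the series. The list holds 39 genes, chosen by name with earlier results of these data known. Its shares, set beside those of all genes, are therefore not independent of the data. It covers the enzymes that split glucose to pyruvate and lactate, glucose and lactate carriers, the oxygen sensors, the HIF factors and well-known HIF targets. Of the 39 genes, 36 were measured by a probe set with 1 gene symbol, among 18194 genes in all. Each gene was read from its probe set with the highest mean level. Bnip3l was read only by probe sets that are also annotated to its pseudogene, and no level is given for it. No probe set is annotated to Gpi1 or Eno1 in the table used, and both were not analysed here.

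The samples were SVEC4-10 cells, an endothelial line of mouse lymph node vessels transformed with SV40. The first of 4 groups held cells transduced with the pLENTI6/Block-iT lentiviral vector expressing a short hairpin RNA against Mical2, an enzyme that oxidises actin filaments. The second held cells with the same vector expressing a hairpin against the related gene Mical3. The controls were cells with the insert-free vector, and cells that were untreated. All grew in DMEM with 10% fetal bovine serum and 4 mM glutamine under 5% CO2, and transduced cells were selected with blasticidin. The glucose and oxygen levels are not given in the labels, and nothing in the labels names a hypoxic treatment. There was 1 array per group, hybridised with a pool of 3 biological replicates. The pooling leaves no view of the spread between replicates, so differences are described by size, without a test.

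Cells split glucose to pyruvate in the cytosol and either pass it to mitochondria or reduce it to lactate, and endothelial cells are known to draw most of their energy from this route. Oxygen adds a second layer of control through HIF. When oxygen is plentiful, prolyl hydroxylases mark the HIF alpha subunits, the VHL protein binds the marked subunits and they are degraded. When oxygen falls, HIF binds short DNA elements near its target genes and raises glycolytic enzymes, glucose carriers and mitochondrial regulators.

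Values are log2 expression levels, and differences are log2 differences. A gene is called higher or lower where the difference was 2-fold or more (1 on the log2 scale) and the highest of the compared levels reached a floor of 5.41, which is the median level of all probe sets. This is the rule of size used throughout. Each hairpin array had to differ from both controls in the same direction. Of the 36 measured genes, 32 reached the floor on some array, and Epas1, Slc16a3, Car12 and Adm did not. The number of arrays limits the precision. The standard deviation of a difference, judged from probe sets of the same gene, was 0.24 to 0.36 over 5200 genes, by pair of arrays. It measures disagreement between probe sets and holds no spread between arrays or replicates.

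The array medians over all probe sets lay between 5.40 and 5.44. The targeted transcripts were not lower by 2-fold on the arrays of their own hairpins. By its 2 probe sets, Mical2 read 5.53 and 5.53 with its own label, while vector cells read 4.64 and 5.14 and untreated cells 5.33 and 5.60. Both probe sets were highest on the Mical3-labelled array, at 6 and 6.08. These Mical2 levels lay near the floor, where a 2-fold fall could hardly be seen. The Mical3 transcript read 7.24 with its own label, with 7.29 in vector cells and 7.39 in untreated cells. It was lowest on the Mical2-labelled array, at 6.83. The hairpin arrays are therefore named by their labels below, and every direction is a difference between labelled arrays. Of 9 endothelial markers, only Kdr and Eng reached the floor on any array, while Pecam1, Cdh5, Tek, Tie1, Emcn, Vwf and Erg stayed below it on all 4. Of 4 lymphatic markers, Flt4 and Pdpn reached it and Prox1 and Lyve1 did not. Flt4, a receptor for lymphatic growth factors, was called lower against both controls on both hairpin arrays (7.66 with the Mical2 label and 7.55 with the Mical3 label, with 8.90 in vector cells and 9.18 in untreated cells). In such bulk samples, fewer cells of a type and less RNA per cell cannot be told apart.

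The widest differences among the 36 genes were those of Bnip3 and Ak4, 2 HIF targets. Among the 13 measured enzymes from hexokinase to pyruvate kinase, the range over the 4 arrays ran from 0.16 for Pkm to 1.29 for Hk1. On the Mical3-labelled array, Bnip3, Ak4 and Ddit4 were called lower against both controls. They were 3 of the 30 listed genes that reached the floor in this comparison, beside 2.49% of all genes that reached it. On the Mical2-labelled array, Ak4 was the 1 gene called, as higher. It was 1 of the 32 listed genes that reached the floor in this comparison, beside 0.977% of all genes that reached it. Between the highest and the lowest of the 4 arrays, 10 of the 32 genes that reached the floor differed by at least 2-fold, where 20.2% of all genes that reached it did. The 10 were Bnip3, Ak4, Ddit4, Ndrg1, Pdk1, Slc2a3, Egln3, Hk1, Hk2 and P4ha1.

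**Figure D1:**
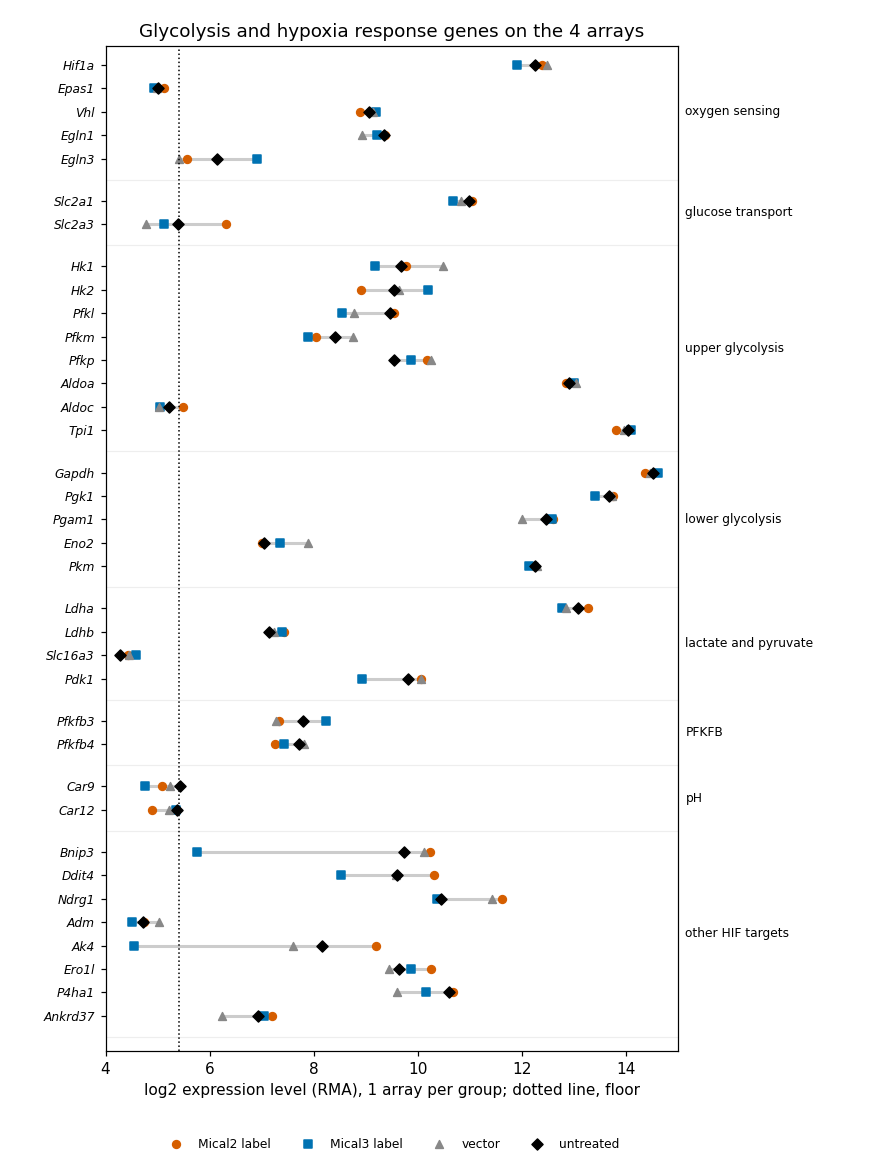
Log2 level of each of the 36 measured genes (rows, by role) on the 4 arrays (symbols), with the floor of 5.41 as a dotted line and a grey bar from the lowest to the highest array. Bnip3 and Ak4 have the longest bars, 4.47 and 4.65 (3.79 for Ak4 with its low level raised to the floor), with the Mical3-labelled array at the low end, while Pkm, Aldoa, Gapdh and Tpi1 span 0.16 to 0.28.

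Bnip3, a receptor on the outer mitochondrial membrane that marks mitochondria for removal by autophagy, had a level of 5.76 on the Mical3-labelled array. It stood at 10.23 on the Mical2-labelled array, 10.13 in vector cells and 9.73 in untreated cells. The array labelled Mical3 thus stood apart from the other 3, which lay within 0.50 of each other. Its difference was -4.37 from vector cells and -3.97 from untreated cells, and 4.47 for the Mical2-labelled array minus the Mical3-labelled array. Bnip3 was read by 1 probe set, so no second reading was available. Its level on the Mical3-labelled array lay just above the floor.

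Ak4, an adenylate kinase of the mitochondrial matrix, was highest on the Mical2-labelled array, at 9.20, and lowest on the Mical3-labelled array, at 4.55, which is below the floor. The vector array read 7.61 and the untreated array 8.17, between the hairpin arrays. The array labelled Mical2 differed by 1.59 from vector cells and by 1.03 from untreated cells, and the Mical3-labelled array by -3.06 and -3.62. The probe set used is one shared between transcripts. A second, not of that kind, gave the same order, with 8.60 and 4.10 on the Mical2-labelled and Mical3-labelled arrays, 6.47 in vector cells and 7.31 in untreated cells. Another gave 6.05, 4.99, 4.87 and 5.57 in that order, with the vector array lowest, and the other 2 probe sets, at means of 5.58 and 4.06, differed by at most 0.20. When all 5 probe sets were averaged, the call on the Mical2-labelled array was lost (0.54 from the nearer control). The difference of the Mical3-labelled array from the nearer control was then -1, on the threshold, and that between the hairpin arrays was 2. Since the level on the Mical3-labelled array lay below the floor, the differences were also taken with that level raised to the floor, and were then -2.20 from vector cells, -2.76 from untreated cells and 3.79 between the hairpin arrays.

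Ddit4, which encodes the mTORC1 inhibitor REDD1, read 8.52 on the Mical3-labelled array, against 9.58 in vector cells and 9.61 in untreated cells. Its level was 10.32 on the Mical2-labelled array. The controls differed from each other by 0.03, while the Mical3-labelled array lay 1.06 below the vector and 1.09 below the untreated array, and the Mical2-labelled array lay 0.74 and 0.71 above them. It was read by 1 probe set.

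Against both controls, 3 of the 30 listed genes that reached the floor were thus called on the Mical3-labelled array, all lower. Of all 12012 genes at or above the floor, 3.87% were called in either direction, 1.38% higher and 2.49% lower. With vector cells as the only control, 7 were called, Egln3 higher and Hk1, Pdk1, Bnip3, Ddit4, Ndrg1 and Ak4 lower, beside 4.64% of all genes higher, 7.13% lower and 11.8% either way. With untreated cells as the only control the same 3 were called lower, beside 1.95% of all genes higher, 3.72% lower and 5.67% either way. The median difference of the 36 genes was -0.07 from the mean of the controls, beside 0.01 over all genes. Markers of other cell types differed on the same array. Of 6 fibroblast and pericyte markers, Pdgfrb (3.55, with 8.13 in vector cells and 10.28 in untreated cells) and Col1a2 (6.19, with 11.64 and 14.49) were called lower. The fibroblast and pericyte list reached the floor with 5 of 6 genes there and with 6 of 6 on each other array, and the log2 of its summed linear level was 14.84 on the Mical2-labelled array, 13.27 on the Mical3-labelled array, 12.79 in vector cells and 15.25 in untreated cells. Of 5 epithelial markers, Krt18 was called higher (7.41, with 4.84 in vector cells and 5.85 in untreated cells), and of 4 lymphatic markers, Flt4 was called lower (7.55, with 8.90 and 9.18). None of 4 leukocyte markers was called. The part of these markers in the result was not tested. Proliferation markers had a mean level of 12.32 on the Mical2-labelled array, 12.52 on the Mical3-labelled array, 12.40 in vector cells and 12.55 in untreated cells.

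On the Mical2-labelled array, 1 of the 32 listed genes that reached the floor was called, as higher. This share is close to the 2.73% of 12073 genes called over the whole table in either direction, where 0.977% were called higher and 1.75% lower. The median difference of the 36 genes was 0.10, beside 0.01 over all genes. With vector cells as the only control, 3 were called higher (Ak4, Slc2a3 and P4ha1), beside 3.82% of all genes higher, 6.91% lower and 10.7% either way. With untreated cells as the only control, 2 were called higher (Ak4 and Ndrg1), beside 1.44% of all genes higher, 2.44% lower and 3.89% either way. Among the markers of other cell types, Flt4 was called lower on this array as given above, and none of the fibroblast and pericyte, epithelial or leukocyte markers was called against both controls. The part of Flt4 in the result was not tested.

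**Figure D2:**
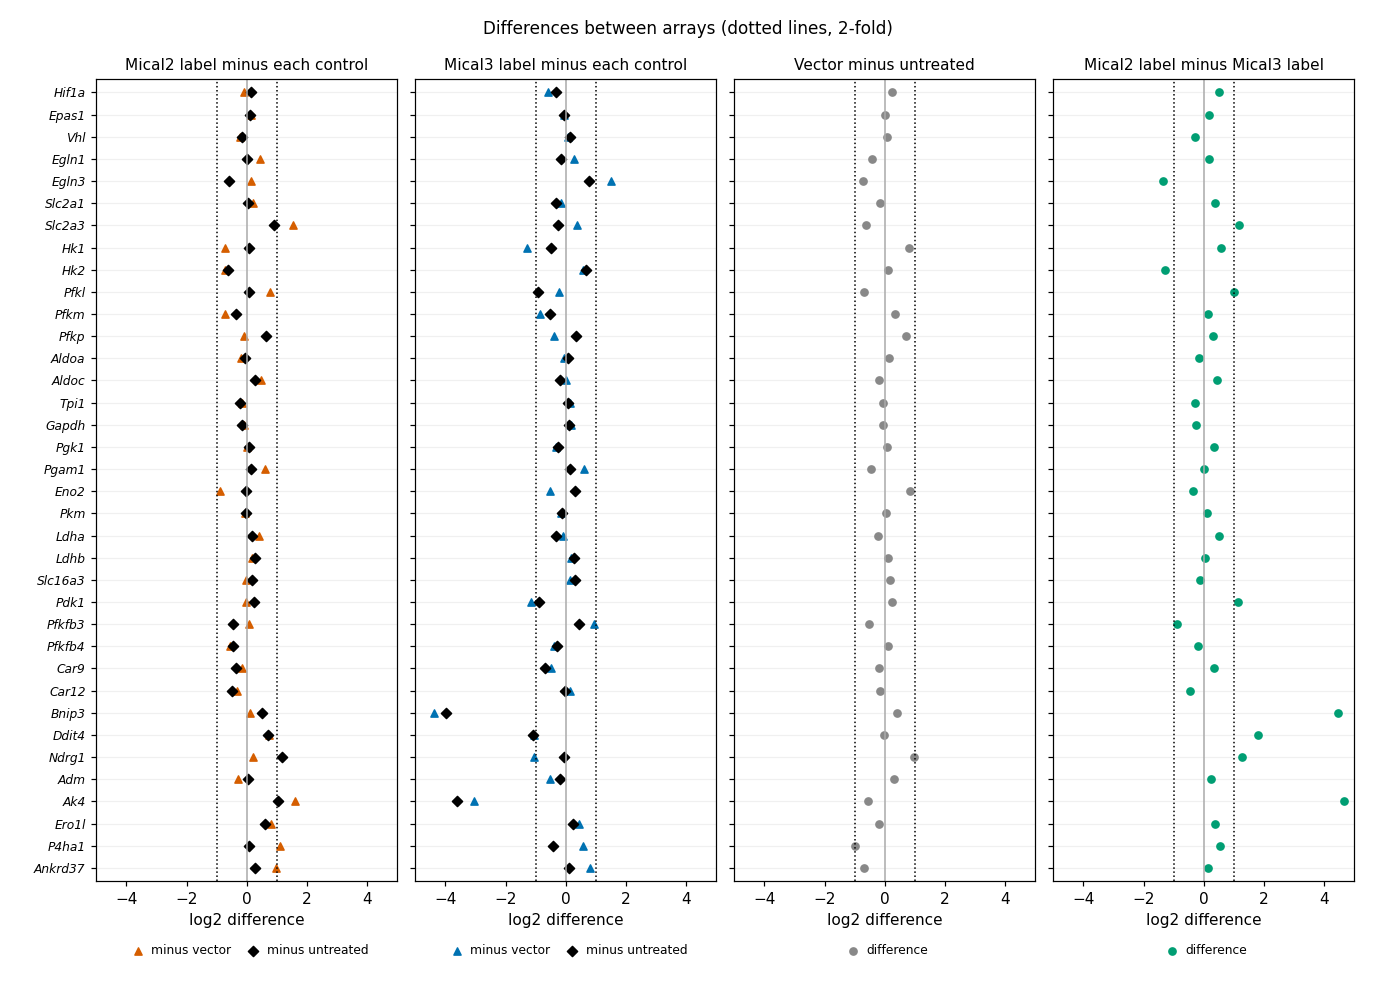
Log2 difference of each gene (rows, in the order of the levels plot) for the Mical2-labelled array minus each control, the Mical3-labelled array minus each control, the vector minus the untreated array, and the Mical2-labelled array minus the Mical3-labelled array; dotted lines mark 2-fold. Bnip3, Ak4 and Ddit4 lie beyond the line against both controls in the panel of the Mical3-labelled array, and most other points lie inside the lines.

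The hairpin arrays were also set against each other directly. Of the 36 genes, 31 reached the floor in this comparison. Of these 31, 6 were called higher on the Mical2-labelled array than on the Mical3-labelled array (Bnip3, Ak4, Ddit4, Ndrg1, Slc2a3 and Pdk1) and 2 lower (Hk2 and Egln3). Among all genes, 3.81% of 11929 genes were called higher, 3.72% lower and 7.53% in either direction. The median difference was 0.21 over the 36 genes and 0 over all genes. Of the 6 fibroblast and pericyte markers, 3 were called higher on the Mical2-labelled array in this comparison, and their part in the result was not tested.

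Ndrg1, a gene induced by hypoxia and by metal chelation, read 11.63 on the Mical2-labelled array, 10.38 on the Mical3-labelled array, 11.43 in vector cells and 10.45 in untreated cells. The arrays fell into a high pair, Mical2 label and vector, and a low pair, Mical3 label and untreated. All 5 probe sets of Ndrg1 gave this split, the one used being open to cross-hybridisation. Their differences between the Mical2-labelled and Mical3-labelled arrays ran from 0.91 to 1.30.

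Pdk1 phosphorylates pyruvate dehydrogenase and so keeps pyruvate out of the mitochondrial citrate cycle. Its level was 10.06 on the Mical2-labelled array, 8.93 on the Mical3-labelled array, 10.07 in vector cells and 9.82 in untreated cells. The array labelled Mical3 was the low one, by 1.14 from vector cells and 0.89 from untreated cells. By this probe set Pdk1 thus missed the rule of size against both controls. Of the other probe sets, the pair above the floor also had their lowest level there, at 8.50 and 6.46, and the last, with a mean of 3.68, did not. The probe set at 6.46 differed by -1.68 from vector cells and -1.30 from untreated cells, past the rule against both. With the probe sets of highest variance, 4 genes were called on the Mical3-labelled array, Pdk1, Bnip3, Ddit4 and Ak4. That setting favours probe sets with large differences, and the share of all genes called under it was not taken.

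Hk2, the hexokinase that binds mitochondria and is induced by HIF, ran the other way. It read 8.92 on the Mical2-labelled array and 10.20 on the Mical3-labelled array, with the vector at 9.64 and the untreated array at 9.54 between them. Its 1 probe set differed by -1.28 between the hairpin arrays. Egln3, a prolyl hydroxylase that HIF itself induces, read 5.56 on the Mical2-labelled array, 6.91 on the Mical3-labelled array, 5.41 in vector cells and 6.15 in untreated cells. Its second probe set, below the floor, gave the same order, at 4.40, 5.30, 4.15 and 4.77.

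Slc2a3, the neuronal-type glucose carrier GLUT3, reached the floor only on the Mical2-labelled array (6.31), with 5.13 on the Mical3-labelled array, 4.77 in vector cells and 5.39 in untreated cells. The probe set is one shared between transcripts. A second, open to cross-hybridisation, read 5.33, 4.47, 4.42 and 4.80, while the other 2 read 3.84, 4.13, 3.84 and 4.02, and 3.55, 3.62, 3.41 and 3.50. Without probe sets open to cross-hybridisation or shared between transcripts, the difference between the hairpin arrays was -0.29, the opposite sign and below the floor. With low levels raised to the floor it was 0.90, short of the rule.

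**Figure D3:**
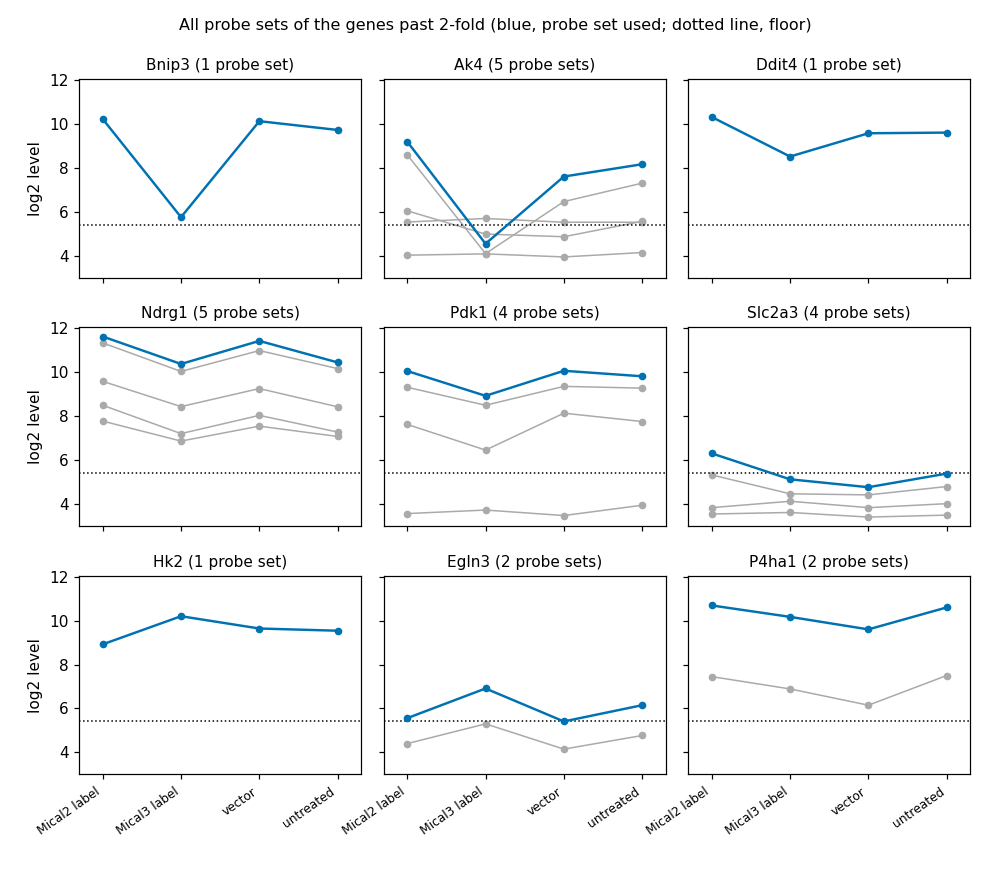
Log2 level of every probe set of the 9 genes called against both controls, between the hairpin arrays or between the controls (lines; blue, the probe set used) on the 4 arrays in the order Mical2 label, Mical3 label, vector and untreated, with the floor dotted. The 5 lines of Ndrg1 and both lines of P4ha1 and of Egln3 run in parallel, while 2 of the 5 Ak4 lines drop steeply on the Mical3-labelled array.

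HIF acts through elements whose core is ACGTG or GCGTG. Shown here are the 250 bases before the annotated start for 6 of the 8 genes called between the hairpin arrays, from RefSeq on GRCm38.p6, 5′ to 3′ along the gene, with the cores of either strand in capitals (CACGT and CACGC are the cores read on the other strand). The windows are chr7:138909507-138909756 (minus strand) for Bnip3, chr10:59951771-59952020 (minus strand) for Ddit4, chr4:101419039-101419288 (plus strand) for Ak4, chr2:71872974-71873223 (plus strand) for Pdk1, chr6:82774455-82774704 (minus strand) for Hk2 and chr12:54203875-54204124 (minus strand) for Egln3. The windows of Ndrg1 and Slc2a3 were not analysed here. Where a gene has several starts, the most upstream one is shown.
Bnip3: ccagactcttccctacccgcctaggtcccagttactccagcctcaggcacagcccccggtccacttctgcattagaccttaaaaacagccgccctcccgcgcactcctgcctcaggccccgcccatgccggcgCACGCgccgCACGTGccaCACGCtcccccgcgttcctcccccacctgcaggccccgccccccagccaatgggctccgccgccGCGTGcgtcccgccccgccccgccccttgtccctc
Ddit4: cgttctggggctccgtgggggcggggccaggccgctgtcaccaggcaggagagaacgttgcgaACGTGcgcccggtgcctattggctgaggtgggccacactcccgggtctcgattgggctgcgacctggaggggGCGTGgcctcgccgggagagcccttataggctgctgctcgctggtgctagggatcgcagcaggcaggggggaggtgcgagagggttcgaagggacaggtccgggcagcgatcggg
Ak4: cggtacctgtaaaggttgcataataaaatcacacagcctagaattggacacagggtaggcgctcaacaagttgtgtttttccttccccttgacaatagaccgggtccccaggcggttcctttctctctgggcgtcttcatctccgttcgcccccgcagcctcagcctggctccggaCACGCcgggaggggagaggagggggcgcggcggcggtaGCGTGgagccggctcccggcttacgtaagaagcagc
Pdk1: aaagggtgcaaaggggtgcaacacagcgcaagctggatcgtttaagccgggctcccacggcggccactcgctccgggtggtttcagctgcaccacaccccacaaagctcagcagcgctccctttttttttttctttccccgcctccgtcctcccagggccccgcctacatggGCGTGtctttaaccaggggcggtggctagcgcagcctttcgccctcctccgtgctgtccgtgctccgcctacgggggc
Hk2: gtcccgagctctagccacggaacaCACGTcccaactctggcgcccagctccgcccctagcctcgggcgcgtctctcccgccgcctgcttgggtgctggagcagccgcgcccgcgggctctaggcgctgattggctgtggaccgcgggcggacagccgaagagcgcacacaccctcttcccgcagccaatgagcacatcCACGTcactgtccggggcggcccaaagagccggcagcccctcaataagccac
Egln3: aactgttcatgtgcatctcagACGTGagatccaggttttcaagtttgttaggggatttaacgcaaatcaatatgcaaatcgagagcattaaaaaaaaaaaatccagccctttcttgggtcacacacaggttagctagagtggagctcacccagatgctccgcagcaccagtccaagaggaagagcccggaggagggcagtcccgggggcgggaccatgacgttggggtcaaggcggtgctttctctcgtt
The Bnip3 window held 5 matches, counting CACGTG on each strand, whose first bases lay from position -117 to -35, counted from the start. Ddit4, Ak4 and Hk2 held 2 each, and Pdk1 and Egln3 held 1. Each of the 6 windows held at least 1 core, while the window of the other Pdk1 start, not shown, held none. Among the windows of the listed genes (51 windows of 35 genes, some overlapping), 45.1% held ACGTG and 54.9% GCGTG on either strand, against 16.6% and 28.2% of all 32851 windows. Of 21263 windows of protein-coding genes, 17.8% and 33.8% did. At least 1 of the cores was held by 80.4% of the listed genes' windows, 38.6% of all windows and 44% of those of protein-coding genes. The listed genes' windows were also richer in G and C, with a median of 62% against 52.4% for all windows and 55.6% for those of protein-coding genes. The list was chosen to include well-known HIF targets, so its share of windows with a core is not independent of that choice. A match is only these letters in this window, and binding was not measured.

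**Figure D4:**
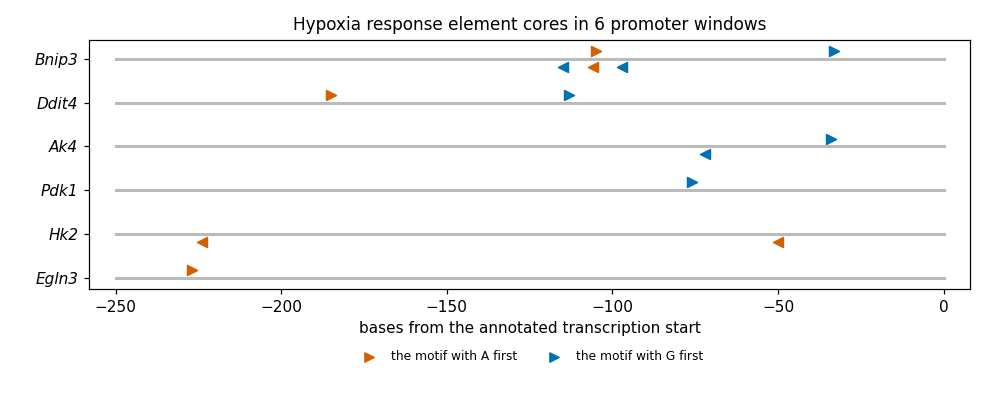
Position of each core (triangles, pointing right for the gene's strand and left for the other; orange, ACGTG; blue, GCGTG) in the 250 bases before the start of 6 genes. Bnip3 has 4 of its 5 matches between positions -117 and -99, and the Egln3 match lies at -229.

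Apart from Egln3, the oxygen sensing genes differed by less than 2-fold over the 4 arrays. Hif1a, the HIF-1 alpha subunit, read 12.40 on the Mical2-labelled array, 11.91 on the Mical3-labelled array, 12.49 in vector cells and 12.25 in untreated cells. It was lowest on the Mical3-labelled array by 3 of its 4 probe sets, and the 2 brightest differed there by -0.58 and -0.80 from vector cells and by -0.34 and -0.48 from untreated cells, short of 2-fold. The dimmest probe set stayed below the floor. Protein levels of HIF, which oxygen controls, were not measured. Epas1, the HIF-2 alpha subunit typical of endothelium, stayed below the floor on every array (4.94 to 5.12). Vhl, the recognition subunit of the ligase that removes HIF, lay between 8.90 and 9.20. Egln1, the main prolyl hydroxylase, read 9.37 on the Mical2-labelled array, 9.21 on the Mical3-labelled array, 8.93 in vector cells and 9.36 in untreated cells.

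None of the 13 measured enzymes from hexokinase to pyruvate kinase was called against both controls, beside 2.73% of genes that reached the floor for the Mical2-labelled array and 3.87% for the Mical3-labelled array. At these shares a count of 0 among 13 is near the background. Slc2a1, the main glucose carrier GLUT1, lay between 10.68 and 11.04. Among the upper enzymes, Aldoa, an aldolase, spanned 12.85 to 13.05 and Tpi1, triose phosphate isomerase, 13.82 to 14.10. The Aldoa probe sets are all open to cross-hybridisation. Among the lower enzymes, Gapdh spanned 14.37 to 14.63, Pgk1, phosphoglycerate kinase, 13.41 to 13.75, Pkm, pyruvate kinase, 12.14 to 12.30, and Pgam1, phosphoglycerate mutase, 12.00 to 12.60, with the vector array lowest. Gapdh was read only by the manufacturer's control probe sets. Its 3′ probe set minus its 5′ probe set was -0.22 on the Mical2-labelled array, -0.19 on the Mical3-labelled array, -0.13 in vector cells and -0.15 in untreated cells, a spread of 0.09. The same measure for Actb was 0.06 on the Mical2-labelled array, 0.03 on the Mical3-labelled array, 0.18 in vector cells and 0.03 in untreated cells, highest in vector cells.

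Several isoforms of single steps had wider ranges. Hk1, the ubiquitous hexokinase, read 9.77 on the Mical2-labelled array, 9.19 on the Mical3-labelled array, 10.48 in vector cells and 9.69 in untreated cells. The vector array was highest and the Mical3-labelled array lowest, 1.29 apart, but the Mical3-labelled array differed from untreated cells by only -0.50, and the second probe set, near the floor, spanned 5.41 to 5.59. Of the phosphofructokinases, Pfkl, the liver type, read 9.54 on the Mical2-labelled array, 8.55 on the Mical3-labelled array, 8.77 in vector cells and 9.47 in untreated cells. This pairing, with the Mical2 label and untreated high, also appeared in its second probe set (8.22, 7.44, 7.81 and 8.14). The hairpin arrays differed by 0.99 in Pfkl, just short of 2-fold.

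Pfkm, the muscle type, read 8.04 on the Mical2-labelled array, 7.90 on the Mical3-labelled array, 8.75 in vector cells and 8.41 in untreated cells. Pfkp, the platelet type, read 10.18, 9.88, 10.26 and 9.55 in that order. So the untreated array was lowest for Pfkp and the Mical3-labelled array for Pfkl and Pfkm. Aldoc, the brain-type aldolase, passed the floor only on the Mical2-labelled array (5.49, with a low of 5.02 in vector cells). Eno2, the neuronal-type enolase, read 7.01 on the Mical2-labelled array, 7.36 on the Mical3-labelled array, 7.89 in vector cells and 7.04 in untreated cells.

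Pfkfb3 makes fructose 2,6-bisphosphate, the activator of phosphofructokinase, and is known to support vessel sprouting. It read 7.34 on the Mical2-labelled array, 8.23 on the Mical3-labelled array, 7.28 in vector cells and 7.80 in untreated cells. Like Hk2 and Egln3, it was highest on the Mical3-labelled array, by 0.95 over vector cells and 0.43 over untreated cells, short of the rule, and its second probe set spanned 5.29 to 5.56. Pfkfb4, its relative, lay between 7.25 and 7.82. At the lactate step, Ldha, lactate dehydrogenase A, read 13.28 on the Mical2-labelled array, 12.78 on the Mical3-labelled array, 12.86 in vector cells and 13.09 in untreated cells, and Ldhb spanned 7.14 to 7.43. Slc16a3, the lactate exporter MCT4, stayed below the floor (4.27 to 4.58).

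P4ha1, the catalytic subunit of collagen prolyl 4-hydroxylase, was the 1 gene called between the vector and the untreated array, as lower. In this comparison 30 of the listed genes reached the floor. It read 9.60 in vector cells and 10.60 in untreated cells, with 10.69 on the Mical2-labelled array and 10.17 on the Mical3-labelled array. A second probe set gave 6.15 in vector cells and 7.50 in untreated cells. The difference of -1 lay on the threshold, and under a repeated quantile normalization it was -0.98 and not called. Among all genes, 5.83% of 11850 genes were called in this comparison, 3.26% higher and 2.57% lower, and the median difference was -0.02 over the 36 genes and 0.02 over all genes.

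Other values moved with the vector array. Amino acid and unfolded protein stress genes had Ddit3, Trib3 and Chac1 called higher of 6 in vector against untreated cells, at 13.08, 12.12 and 11.77 against 11.06, 10.06 and 10.19, and their mean level was 12.66 in vector cells and 11.74 in untreated cells. Of 6 fibroblast and pericyte markers, 5 were called lower there. Of the epithelial markers, Krt8 (6.42 in vector cells and 8.27 in untreated cells) and Krt18 (4.84 and 5.85) were called lower, and of the leukocyte markers Cd68 was called higher (8 and 5.93). The Actb measure of RNA integrity was also highest in vector cells, as given above. The part of any of these in the P4ha1 value was not tested.

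The remaining HIF targets stayed within 2-fold over the 4 arrays. Ankrd37, an ankyrin repeat protein, read 7.20 on the Mical2-labelled array, 7.05 on the Mical3-labelled array, 6.23 in vector cells and 6.93 in untreated cells. Ero1l, which reoxidises protein disulfide isomerase in the endoplasmic reticulum, read 10.25, 9.88, 9.45 and 9.64 in that order. Its second probe set disagreed, with the vector array highest (9.05, 9.54, 9.81 and 9.12), so no direction is given for Ero1l. Car9 and Car12, carbonic anhydrases of the cell surface that act on pH, lay at 4.75 to 5.44 and 4.90 to 5.38. Adm, the vasodilator peptide adrenomedullin, stayed below the floor (4.51 to 5.02).

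Genes of the same pathways outside the list were taken from lists of other glycolysis and glucose genes, other hypoxia-induced genes and the pentose phosphate pathway. Of 32 measured glycolysis and glucose genes, Eno3, the muscle-type enolase, was called higher on the Mical2-labelled array against both controls (11.39, with 9.88 in vector cells and 9.86 in untreated cells). Tigar, a phosphatase that lowers fructose 2,6-bisphosphate, was called higher on the Mical3-labelled array (8.73, with 7.40 and 7.64). Both were also called between the hairpin arrays, Eno3 higher at 11.39 on the Mical2-labelled array against 9.11 on the Mical3-labelled array, and Tigar lower at 7.43 against 8.73. Among all genes that reached the floor, 2.73% were called on the Mical2-labelled array, 3.87% on the Mical3-labelled array and 7.53% between the hairpin arrays.

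Of 34 measured hypoxia-induced and HIF pathway genes, none was called against both controls on either hairpin array, which at 2.73% and 3.87% of genes that reached the floor is near the background. Between the hairpin arrays, Lox, the collagen crosslinking enzyme (13.60 with the Mical2 label, 12.12 with the Mical3 label), and Igfbp3 (5.49 and 4.46) were called higher. In vector against untreated cells, Edn1, the vasoconstrictor peptide endothelin-1 (6.61 and 8.46), and Lox (11.70 and 12.72) were called lower and Rora, a nuclear receptor (7.41 and 5.85), higher. Among all genes that reached the floor, 7.53% were called between the hairpin arrays and 5.83% between the controls, in either direction. None of 7 measured pentose phosphate genes was called in any of the 4 comparisons. The median differences of the hypoxia-induced genes were 0.15 on the Mical2-labelled array and -0.02 on the Mical3-labelled array from the mean of the controls, and 0.14 between the hairpin arrays. Those of the glycolysis and glucose genes were 0.01, 0 and -0.02, beside 0.01, 0.01 and 0 over all genes. Both hairpin arrays share the same controls.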

How the data were processed

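RNA of SVEC4-10 cells was hybridised as biotin-labelled complementary RNA to 3′ expression arrays, 1 array per group, per the labels. The deposited values are log2 expression levels per probe set, computed by the authors with RMA (background correction, quantile normalization, summary of probes), per the submitters' processing notes. The software version and settings were not stated.

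The values were used without further scaling. Of 45101 probe sets, 34958 have 1 gene symbol in the platform annotation, 932 several and 9211 none. Symbols were updated by Entrez identifier against RefSeq (GRCm38.p6), which matched 34754. A gene was represented by its brightest probe set by mean level, control probe sets included. This left 18194 genes, and 12167 reached the floor on at least 1 array. The size rule was run on all genes. It was tried on simulated data, with differences added only to genes well above the floor. The pass mark for recovery used differences well past 2-fold, so recovery near the threshold or the floor was not judged. Non-members named with results were those passing the rule, at most 4 per list and comparison, beside the cell type markers and 4 genes named in the closing section after their values were seen. The members and lists were chosen with earlier results of these data known. Alternatives were the fold threshold, the floor, the probe set, the scaling, 16 added on the linear scale and the control array, and, chosen after seeing the data, low levels raised to the floor. Tools were Python 3.11.15, numpy 2.4.6, pandas 2.3.3, statsmodels 0.14.6 and matplotlib 3.10.9.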

Additional observations from a re-analysis of the deposited data

How the results depend on the processing

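No paired analysis was possible because there is 1 array per group, and no replicate could be left out. The counts of called genes were small and depended on the fold. At 1.5-fold, 5 genes were called on the Mical2-labelled array (1 at 2-fold), beside 8.11% of the genes tested, 5 on the Mical3-labelled array (3 at 2-fold), beside 11%, and 8 in vector against untreated cells (1 at 2-fold), beside 17.6%. At 3-fold the Mical2-labelled array and the vector array had 0 called, beside 0.928% and 1.65% of the genes tested, and 3 genes (Bnip3, Ddit4 and Ak4) were called between the hairpin arrays (8 at 2-fold), beside 3.14%. With the vector as the only control, 3 genes were called on the Mical2-labelled array and 7 on the Mical3-labelled array. With the untreated array alone the Mical2-labelled array had 2. Averaging probe sets left 0 called on the Mical2-labelled array, and adding 16 on the linear scale left 0 there and in vector cells. A repeated quantile normalization kept the vector count at 1 but called Ndrg1 in place of P4ha1. For averaged probe sets, 16 added and the repeated normalization, the share of all genes called was not taken. The median difference on the Mical2-labelled array, 0.10, was 0.03 with averaged probe sets and 0.03 from vector cells alone. The median between the hairpin arrays, 0.21, was 0.10 with averaged probe sets, 0.15 with 16 added and 0.12 with low levels raised to the floor, a setting chosen after seeing the data. The vector's median of -0.02 was -0.13 with the probe sets of highest variance. Of 151 alternative values for single called genes, 132 stayed past the rule, 18 kept their direction but not the rule, and 1, Slc2a3 between the hairpin arrays, was -0.29 in place of 1.18. The count of 132 includes values fixed in advance. A 1.5-fold threshold, no floor, or 1 control in place of both could not undo these calls. Nor could the choice of probe set for Bnip3, Ddit4 and Hk2, which have 1 each. Bnip3 and Ak4 on the Mical3-labelled array, and Bnip3, Ak4 and Ddit4 between the hairpin arrays, stayed at or past the rule in every alternative run, but with averaged probe sets Ak4 moved to -1, on the threshold, in place of -3.06 from the nearer control, and to 2 in place of 4.65 between the hairpin arrays. Ddit4 on the Mical3-labelled array was lost at 3-fold alone. Where no construction of the alternative shows it, the cause was not tested.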

Other observations

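Among the wider hypoxia-induced genes, 4 that passed no rule of size against both controls are given here, chosen after their values were seen. Fam162a, a HIF-induced mitochondrial protein, read 12.90 on the Mical2-labelled array, 11.94 on the Mical3-labelled array, 12.74 in vector cells and 12.72 in untreated cells, so the Mical3-labelled array was lowest, as for Bnip3 and Pdk1. Hilpda, a HIF-induced lipid droplet protein, was highest there, at 9.43, with 9.02 on the Mical2-labelled array, 8.81 in vector cells and 8.67 in untreated cells. Vegfa, the main angiogenic growth factor and a HIF target, read 7.98 on the Mical2-labelled array, 8.97 on the Mical3-labelled array, 9.04 in vector cells and 8.34 in untreated cells. Plod2, a collagen lysyl hydroxylase, read 10.59, 10.36, 9.65 and 10.48 in that order, with the vector array lowest, as for P4ha1.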
